A study of Mus musculus with 18 samples.

Results

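Fcer1g, Fcgr1, Fcgr2b, Fcgr3, Tyrobp and Syk encode Fc receptors and the proteins that pass their signal into the cell. They were followed in an array study of brain tissue from mice that lack T1R3, a subunit of the sweet and umami taste receptors. The members were taken by gene symbol, old or current. The array held 8 probes for the 6 genes among its 25697 probes. Fcgr2b had 3 of these probes and each other gene had 1. Of the 8 probes, 6 were detected at a detection p under 0.05 on at least 3 arrays and entered the fit of 15476 probes. The Syk probe and the third Fcgr2b probe were detected on 0 of 18 arrays. The genes were chosen by earlier KO minus WT differences on these same arrays, which were large for Fcer1g and Fcgr3, so their knockout values against wild type are given as a description, with no test.

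There were 6 groups of 3 arrays. T1R3 knockout (KO) mice supplied cortex, hippocampus and hypothalamus, and wild-type (WT) mice supplied the same 3 regions. All were males aged 4 to 5 months on a C57BL/6J background and were fed standard chow. Breeding of the T1R3KO line to C57BL/6J had run for 4 generations or more, and its strain of origin is not stated in the labels. Each array stands for a separate animal, 18 in all, and each sample was RNA from a whole dissected region. In such tissue, fewer cells of a type and less RNA per cell cannot be told apart.

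Fc receptors bind the constant part of antibodies. In the brain they are known chiefly from microglia and from the macrophages of the vessels and meninges. Activating receptors such as the products of Fcgr1 and Fcgr3 carry no ITAM of their own. They pair with the FCER1G chain, also called the Fc receptor gamma chain, whose immunoreceptor tyrosine-based activation motif (ITAM) is phosphorylated when the receptor is cross-linked. TYROBP, also called DAP12, is a related ITAM adaptor used by TREM2 and other myeloid receptors. The kinase SYK binds the phosphorylated ITAMs of both chains. FCGR2B is the inhibitory IgG receptor, which carries the inhibitory counterpart of that motif and recruits the phosphatase SHIP1. In mice, surface FCGR3 is known to depend on the FCER1G chain.

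Promoters are shown for the 3 members of chromosome 1, since Fcer1g and Fcgr3 carry the clearest genotype differences and Fcgr2b lies near Fcgr3. The sequences are the 250 bases before the transcript start on the minus strand, from RefSeq (GRCm38.p6), for Fcer1g at chr1:171234350-171234599, Fcgr3 at chr1:171059404-171059653 and Fcgr2b at chr1:170976072-170976321. Capitals mark GAGGAA, a form of the sites for the myeloid factor PU.1, searched on both strands. Other forms, such as those that share only the letters GGAA, were not searched.
Fcer1g: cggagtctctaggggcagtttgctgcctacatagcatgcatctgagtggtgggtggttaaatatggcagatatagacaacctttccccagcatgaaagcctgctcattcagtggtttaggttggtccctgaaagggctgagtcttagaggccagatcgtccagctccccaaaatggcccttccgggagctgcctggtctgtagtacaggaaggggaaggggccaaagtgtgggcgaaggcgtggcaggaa
Fcgr3: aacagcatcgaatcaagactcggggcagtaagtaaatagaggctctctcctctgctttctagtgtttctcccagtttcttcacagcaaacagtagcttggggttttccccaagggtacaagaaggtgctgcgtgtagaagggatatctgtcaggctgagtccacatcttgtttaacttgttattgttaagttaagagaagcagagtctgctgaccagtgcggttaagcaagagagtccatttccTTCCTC
Fcgr2b: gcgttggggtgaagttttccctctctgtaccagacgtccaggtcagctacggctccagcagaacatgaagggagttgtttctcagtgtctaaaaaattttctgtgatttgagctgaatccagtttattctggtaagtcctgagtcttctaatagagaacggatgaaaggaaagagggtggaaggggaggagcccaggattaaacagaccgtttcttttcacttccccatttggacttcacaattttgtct
The full letters GAGGAA occur once in the Fcgr3 window, 6 bases before the start and in reverse complement, and do not occur in the Fcer1g or Fcgr2b windows. Fcgr1 holds them as well, 55 bases before the start, and Syk holds them before 1 of its 2 starts. RefSeq gave windows for 5 of the 6 genes. Of their first windows 2 of 5 held the letters, against 23.1% of the first windows of all 27025 genes.

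Arrays had a mean signal of 788 to 1388 intensity units and detected 52.1% to 58.1% of probes. The Tas1r3 probe was detected on 1 of 18 arrays, with signals of 112.3 to 163.9, so it gives no check of the genotype labels. Knockout cortex arrays 1 and 3 and wild-type cortex array 2 stood apart from the other cortex arrays. Their 7 hypothalamus markers averaged 6.80 to 7.57 on the log2 scale, against 6.40 to 6.43 on the other 3. Values that rest on cortex are therefore also given without these arrays where they changed. Microglia markers were well measured: 28 of 33 were tested, and Itgam and Itgb2 were on the array but not detected on enough arrays.

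Fcer1g, the shared signalling chain, separated the genotypes on every array. Its signal was 79.1, 77.0 and 76.4 in KO cortex, against 835.8, 943.6 and 970.8 in WT cortex. In hippocampus it was 88.6, 90.8 and 109.3 in KO, against 835.6, 971.4 and 801.2 in WT. In hypothalamus it was 85.8, 97.6 and 93.2 in KO, against 713.2, 721.9 and 806.0 in WT. The 9 KO arrays all lay below the 9 WT arrays, with a gap between 109.3 and 713.2. Normalized levels of all KO and all WT arrays failed to overlap for 0.821% of the probes tested. The probe was detected on 0 KO arrays, with detection p of 0.135 to 0.853, and on all 9 WT arrays.

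Because the KO signal was at the background, the size of the difference depends on how background is treated. The deposited mean signals, background included, differed 11.8-fold in cortex, 9.03-fold in hippocampus and 8.10-fold in hypothalamus, and 9.53-fold over the 9 arrays of each genotype. On the background-corrected scale, set against the dimmest detected probe of each array, Fcer1g was at least 11.8-fold lower in KO cortex, at least 13.2-fold lower in KO hippocampus and at least 10.5-fold lower in KO hypothalamus. These bounds, and that of at least 11.8-fold over all arrays, hold on that scale alone. The measured log2 means were 4.91, 5.12 and 4.93 in KO cortex, hippocampus and hypothalamus, against 9.72 ± 0.08, 9.73 ± 0.20 and 9.26 ± 0.14 (SD, n = 3) in WT. The array carried no second probe for the gene, so these values come from 1 stretch of the transcript.

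Tyrobp, the other ITAM adaptor, had overlapping signals in the genotypes. Its signal was 358.6, 432.3 and 382.2 in KO cortex, against 379.7, 388.8 and 443.9 in WT cortex. In hippocampus it was 400.0, 398.9 and 299.8 in KO, against 352.0, 347.7 and 335.5 in WT. In hypothalamus it was 338.9, 324.7 and 287.4 in KO, against 360.5, 316.8 and 358.5 in WT. No region separated the genotypes by signal. On the log2 scale the KO minus WT difference was -0.03 in cortex, 0.19 in hippocampus and -0.22 in hypothalamus, and -0.02 as the mean of the regions. After normalization the hypothalamus levels no longer overlapped, with KO below WT. Groups of 3 failed to overlap there, in either direction, for 19.1% of the probes tested.

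Syk, the kinase that binds ITAMs, could not be measured. Its signal ran from 79.3 to 98.0 over the KO arrays, with a median of 86.4, and from 70.3 to 97.2 over the WT arrays, with a median of 86.9. A difference between genotypes was therefore not detectable.

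Fcgr3, the activating receptor that pairs with the FCER1G chain, was higher in KO in all 3 regions. Its signal was 741.4, 677.8 and 788.7 in KO cortex, against 321.6, 331.8 and 366.3 in WT cortex. In hippocampus it was 717.2, 541.3 and 481.4 in KO, against 311.9, 318.7 and 311.1 in WT. In hypothalamus it was 473.7, 455.6 and 385.0 in KO, against 263.7, 220.4 and 286.3 in WT. In each region the lowest KO array was above the highest WT array. Non-overlapping groups of 3 occurred for 16.9% of probes in cortex, 15.5% in hippocampus and 19.1% in hypothalamus.

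The normalized Fcgr3 level was 9.41 ± 0.23 in KO cortex and 8.08 ± 0.16 in WT cortex (SD, n = 3 each), a 2.52-fold difference. It was 9.11 ± 0.14 in KO hippocampus and 7.94 ± 0.19 in WT hippocampus, 2.25-fold. It was 8.27 ± 0.11 in KO hypothalamus and 7.26 ± 0.25 in WT hypothalamus, 2.02-fold. The mean of the regions was 1.17 on the log2 scale. Without the 3 cortex arrays that stood apart, the cortex difference was 1.00, against 1.33 with them.

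Fcgr1, the high-affinity IgG receptor, lay close to the background. Its signal ran from 120.6 to 159.7 over the KO arrays, with a median of 139.5 and 2 of 9 detected. It ran from 136.9 to 167.4 over the WT arrays, with a median of 147.8 and 5 of 9 detected. In cortex the probe was detected on 0 of 3 KO arrays and 3 of 3 WT arrays, at least 1.12-fold lower in KO on the background-corrected scale. The deposited cortex signals overlapped, with KO up to 139.5 and WT from 139.3. The normalized cortex levels did not overlap, which held for 16.9% of probes tested. The cortex log2 difference of -0.40 was -0.27 without the 3 cortex arrays that stood apart. It was -0.19 under quantile normalization without background correction. In hippocampus and hypothalamus the genotypes overlapped.

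Fcgr2b, the inhibitory receptor, was read by 1 probe that was detected on all 18 arrays and by 2 dim ones. The first probe gave signals of 211.2, 243.8 and 254.0 in KO cortex, against 166.1, 188.9 and 187.5 in WT cortex. In hippocampus it gave 187.1, 190.7 and 160.8 in KO, against 179.1, 167.5 and 155.1 in WT. In hypothalamus it gave 190.6, 154.0 and 157.0 in KO, against 178.1, 191.7 and 192.7 in WT. The signals separated the genotypes in cortex and overlapped in hippocampus and hypothalamus.

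After normalization the first Fcgr2b probe did not overlap in any region, and its direction was not the same in all. It stood at 7.40 ± 0.32 in KO cortex and 6.74 ± 0.03 in WT cortex (SD, n = 3 each), a log2 difference of 0.66. In hippocampus it stood at 6.77 ± 0.10 in KO and 6.44 ± 0.14 in WT, a difference of 0.34. In hypothalamus it stood at 6.17 ± 0.18 in KO and 6.55 ± 0.16 in WT, a difference of -0.38. Normalized groups of 3 failed to overlap, in either direction, for 16.9% of probes tested in cortex, 15.5% in hippocampus and 19.1% in hypothalamus. The second probe differed by 0.27, 0.27 and -0.18 in the same order of regions, with overlapping groups, and was detected on 3 KO and 0 WT arrays. The third probe stayed between 102.6 and 134.5 in KO and between 107.1 and 136.8 in WT, at the background throughout. Fcgr2b, Fcgr3 and Fcgr4 are close relatives, and whether a probe also binds a relative's transcript was not tested.

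**Figure D1:**
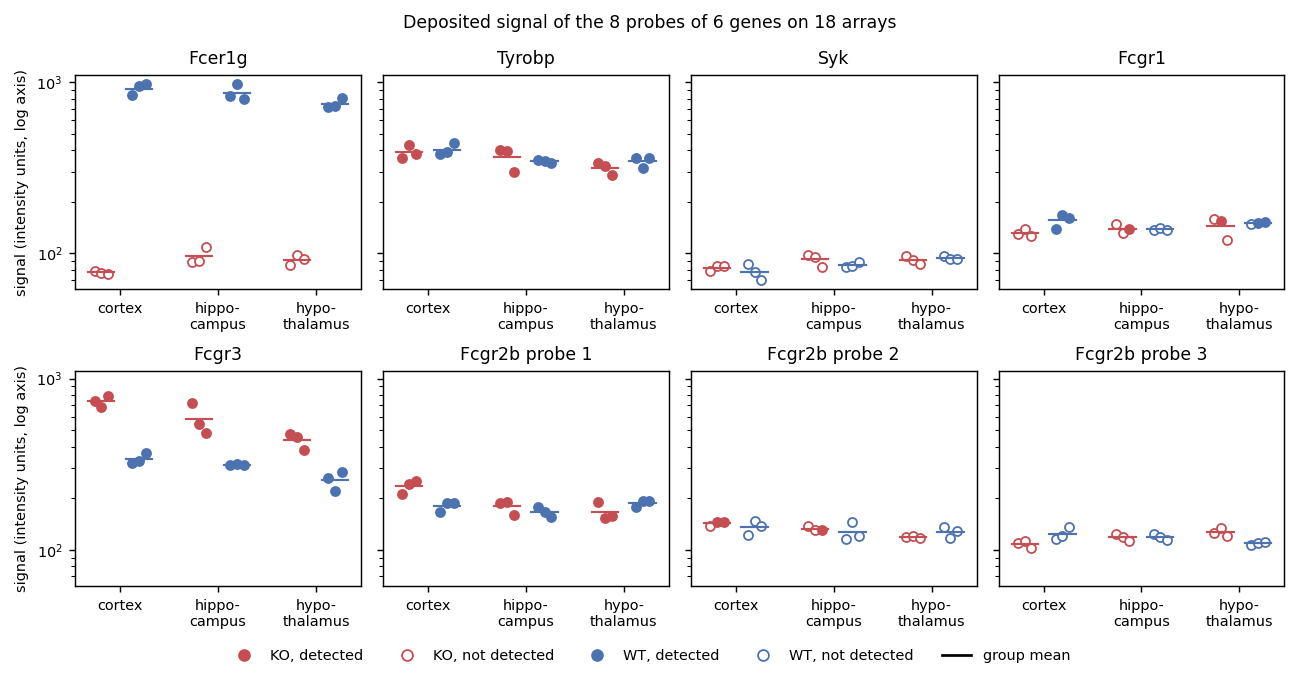
Deposited signal in intensity units, on a log axis, of the 8 probes on 18 arrays, with KO left of WT in each region, filled points for detected and open points for not detected probes, and lines for the means of 3 arrays. Fcer1g lies between 76.4 and 109.3 on the KO arrays and between 713.2 and 971.4 on the WT arrays, Fcgr3 is above WT in KO in every region, and Tyrobp overlaps.

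The regions within a genotype were compared next, since the choice of genes did not use these contrasts. The test was limma on background-corrected, quantile-normalized log2 values, with Benjamini-Hochberg adjustment over all 15476 probes. Pairs in which neither region had a detected array were left out, which removed Fcer1g in KO and the second Fcgr2b probe in WT. In KO, 9 of the 15 differences passed an adjusted p of 0.05, and in WT 7 of 15. The second Fcgr2b probe supplies 2 of the KO calls, but it was detected on only 3 arrays, all in KO cortex or KO hippocampus, and so entered the fit through the groups where it is high. Without it, 7 of 12 KO differences passed. All calls were lower in the region named first in hypothalamus against cortex, hypothalamus against hippocampus and hippocampus against cortex. Calls were common on this array. In KO, 47.6%, 41.9% and 18.4% of all probes passed in those 3 pairs, with 22.6%, 19.8% and 9.19% lower in the first region. In WT the shares were 49.5%, 42% and 18.6%, with 23.9%, 19.9% and 9.68% lower.

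Fcer1g was lower in WT hypothalamus, at 9.26 ± 0.14, than in WT cortex, at 9.72 ± 0.08 (SD, n = 3 each). The difference was 1.38-fold (limma adjusted p = 0.0101). Against WT hippocampus, at 9.73 ± 0.20, it was 1.39-fold (limma adjusted p = 0.0107), but without WT hippocampus array 3 or WT hypothalamus array 1 the adjusted p was 0.0501 or 0.0506. Hippocampus and cortex differed by 0.01 on the log2 scale, with a 95% interval of -0.29 to 0.31.

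Tyrobp was likewise lower in hypothalamus. It was 1.62-fold lower in KO hypothalamus than in KO cortex and 1.57-fold lower than in KO hippocampus (limma adjusted p = 0.000152 and 0.0003). In WT it was 1.42-fold lower in hypothalamus than in cortex (limma adjusted p = 0.002), and the difference from hippocampus, -0.24 with an interval of -0.50 to 0.01, did not pass.

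Fcgr3 was lower in hypothalamus than in both other regions, in KO and in WT. It was 2.20-fold lower in KO hypothalamus than in KO cortex and 1.80-fold lower than in KO hippocampus (limma adjusted p = 9.53e-06 and 0.00021). In WT hypothalamus it was 1.77-fold and 1.61-fold lower than in WT cortex and WT hippocampus (limma adjusted p = 0.000232 and 0.00129). Leaving out the 3 cortex arrays that stood apart left only array 2 in KO cortex. The hypothalamus minus cortex difference was then -0.89 on the log2 scale in KO, against -1.14 with all arrays. In WT it was -0.91, against -0.82. Hippocampus and cortex did not pass in either genotype, with differences of -0.29 (interval -0.61 to 0.02) in KO and -0.13 (interval -0.45 to 0.19) in WT.

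The first Fcgr2b probe differed between every pair of KO regions. It was 2.35-fold lower in KO hypothalamus than in KO cortex, 1.52-fold lower than in KO hippocampus, and 1.55-fold lower in KO hippocampus than in KO cortex (limma adjusted p = 2.92e-06, 0.00266 and 0.00535). The last of these did not pass when only the 6 arrays compared were fitted (adjusted p = 0.0668). In WT none of its 3 region differences passed in limma. They were -0.19 (interval -0.50 to 0.12) for hypothalamus against cortex, 0.11 (interval -0.20 to 0.42) for hypothalamus against hippocampus, and -0.30 (interval -0.61 to 0.01) for hippocampus against cortex. Whether the region steps differ between genotypes was not tested, because that contrast rests on the same genotype differences that chose the genes. The second probe, described without a test for the way it entered the fit, had mean signals of 119 in KO hypothalamus, 143 in KO cortex and 133 in KO hippocampus.

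Fcgr1 was lower in WT hippocampus than in WT cortex and 1.30-fold lower in WT hypothalamus than in WT cortex (limma adjusted p = 0.0261 and 0.0227). The hippocampus arrays did not detect it, and the difference was at least 1.29-fold on the background-corrected scale and 1.13-fold in deposited mean signal. Under quantile normalization without background correction the differences were -0.22 and -0.19 in place of -0.44 and -0.38, with adjusted p of 0.0601 and 0.0539. The hippocampus call was also lost with the deposited z scores (0.0733) and the trended robust fit (0.0522). Without the 3 cortex arrays that stood apart the adjusted p were 0.0885 and 0.0798. The same holds for leaving out WT cortex array 2 alone, with 0.0916 and 0.078, or WT cortex array 3 alone, with 0.0667 and 0.0506. The first call was also lost without WT hippocampus array 1 or 2 (0.0634 and 0.0887), and the second without WT hypothalamus array 1 (0.0748). No Fcgr1 difference between KO regions passed.

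Microglia markers were more often lower than higher in hypothalamus. In KO hypothalamus 20 of 28 were lower than in KO cortex and 12 of 28 lower than in KO hippocampus at the same threshold, and 2 were higher in each pair. In WT hypothalamus 13 of 28 were lower and 3 higher than in WT cortex, and 11 lower and 2 higher than in WT hippocampus. The median marker difference between hypothalamus and cortex was -0.50 in KO and -0.39 in WT. Summed linear levels of the 28 markers ran from 22707 to 23332 in KO hypothalamus, against 22536 to 25870 in KO cortex. They ran from 24134 to 26299 in WT hypothalamus, against 23299 to 26240 in WT cortex. These sums overlapped between hypothalamus and cortex in both genotypes, but a linear sum weighs the brightest genes most. Of the 3 brightest, Rgs10 (12.49 against 11.52) and Lgmn (11.95 against 11.26) were higher in KO hypothalamus than in KO cortex. Laptm5 was lower (11.96 against 12.33), and the directions were the same in WT. The part of the 28 microglia markers in the region differences of the Fc receptor genes was not tested.

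**Figure D2:**
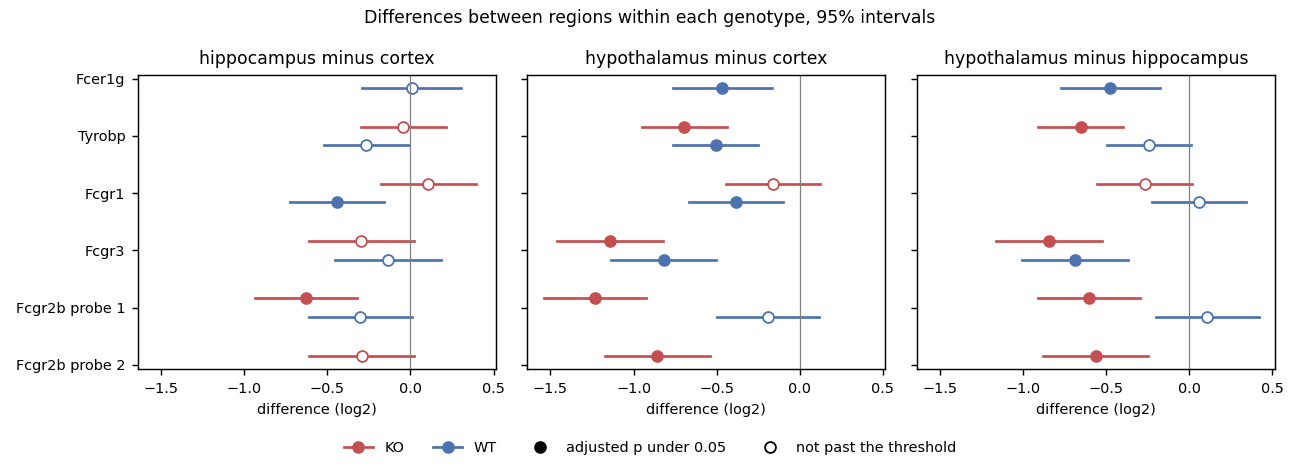
Differences in log2 level between regions within KO (upper point of each row) and WT (lower point), with 95% intervals from the limma fit of 18 arrays, and filled points for adjusted p under 0.05. The filled points all lie below 0, and pairs with no detected array in either region (Fcer1g in KO, the second Fcgr2b probe in WT) are not drawn.

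Genes around the members in the pathway were counted from 6 lists with 165 genes, of which 76 were tested, each by its brightest probe. For the mean KO minus WT difference of the 3 regions, 2 rose and 2 fell, or 5.26%, against 6.24% of all named genes tested. In cortex 1 rose and 2 fell, against 2.59% of all genes called, and without the 3 cortex arrays that stood apart 1 of 76 passed, Pik3ca. The same count of 1 was found without any one of KO cortex array 2 or WT cortex arrays 1, 2 and 3. In hippocampus 1 rose and 0 fell, against 1.33%. In hypothalamus 0 of 76 passed in limma, against 1.74%, and 13 had an unadjusted p under 0.05. The median difference of the 76 genes was -0.01 for the mean of the regions, against 0.01 for all genes. No pathway gene showed a knockout effect that differed between regions by limma's F test (0 of 76, smallest adjusted p = 0.257, with 3 at an unadjusted p under 0.05).

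Among 5 tested Fc receptors outside the members, 1 rose and 1 fell. Fcer2a, the low-affinity IgE receptor CD23, had signals of 183.7, 194.0 and 158.8 in KO cortex, against 144.4, 152.9 and 155.4 in WT cortex, and KO was likewise above WT in the other regions. It rose by 0.50 ± 0.07 (SE) on the log2 scale in the mean of the regions (limma adjusted p = 0.000295). The difference was 0.52 in cortex and 0.57 in hippocampus (limma adjusted p = 0.0353 and 0.0277), and without the 3 cortex arrays that stood apart the cortex value had an adjusted p of 0.232. Leaving out any one of 5 of the 6 cortex arrays, or 5 of the 6 hippocampus arrays, put the adjusted p at 0.0645 to 0.126 and at 0.0527 to 0.134. Fcrls, an Fc receptor-like gene used as a microglia marker in mice, fell by 0.68 ± 0.15 in the mean (limma adjusted p = 0.014). Fcgr4, the other activating IgG receptor that uses the FCER1G chain in mice, was on the array and not detected on enough arrays to be tested.

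Of 7 tested receptors that signal through FCER1G or TYROBP, 0 rose and 1 fell. Trem2, the lipid-sensing receptor of microglia that uses TYROBP, had signals of 445.0, 422.9 and 485.5 in KO cortex, against 574.1, 708.4 and 685.4 in WT cortex. In hippocampus they were 484.7, 365.7 and 427.0 in KO, against 643.4, 548.7 and 545.0 in WT. In hypothalamus they were 440.8, 351.1 and 338.5 in KO, against 545.6, 477.1 and 502.1 in WT. The signals of the genotypes did not overlap in any region, and the mean fell by 0.55 ± 0.08 (SE; limma adjusted p = 0.000579).

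The remaining lists held few calls. Of 40 kinases and adaptors downstream of ITAMs, 1 rose in the mean, Nfatc2, a transcription factor activated by calcium (0.45 ± 0.12, limma adjusted p = 0.0356). That call was lost with the replicate number as a block (adjusted p = 0.0505), and without any one of 11 of the 18 arrays (0.0512 to 0.0735). In cortex 1 fell, Pik3ca, a catalytic subunit of PI3 kinase (-0.66 ± 0.11, adjusted p = 0.00408). Of 12 inhibitors of ITAM signalling none passed in limma, and 3 had an unadjusted p under 0.05. The smallest p there belonged to Ptpn11, which encodes the phosphatase SHP2 (-0.15 ± 0.05, adjusted p = 0.068), and Dok3 (0.20 ± 0.08, adjusted p = 0.175). Of 9 ligands and opsonins none passed in limma, and 2 had an unadjusted p under 0.05, with Cd200 at -0.33 ± 0.09 (adjusted p = 0.054) and C1qc at -0.19 ± 0.07 (adjusted p = 0.168). Of 3 other ITAM chains and adaptors none passed in limma, and 0 had an unadjusted p under 0.05, with Cd3e at 0.19 ± 0.12 (adjusted p = 0.446) and Clec7a at 0.11 ± 0.09 (adjusted p = 0.574).

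**Figure D3:**
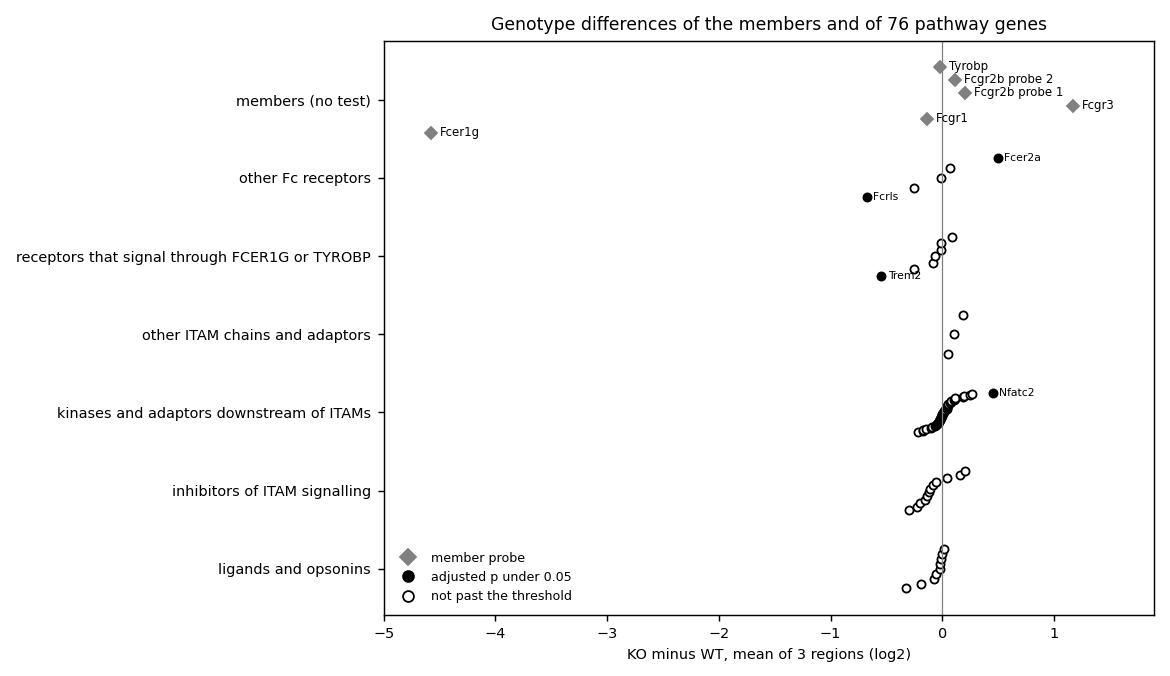
KO minus WT differences on the log2 scale, as the mean of 3 regions, of the 6 tested member probes (diamonds, no test) and of 76 pathway genes in 6 lists (circles, filled for limma adjusted p under 0.05). Fcer1g at -4.58 and Fcgr3 at 1.17 lie outside the pathway genes, of which Fcer2a and Nfatc2 rose and Fcrls and Trem2 fell.

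The cells known to carry these genes were compared between genotypes beside them. Of 28 microglia markers, 0 rose and 4 fell in the mean of the regions, against 6.24% of all named genes tested. The median was -0.08, against 0.01 for all genes. Those that fell were Trem2, Fcrls, Hpgds, a prostaglandin D synthase (-0.55 ± 0.10, limma adjusted p = 0.00373), and Olfml3 (-0.52 ± 0.14, adjusted p = 0.0346), the last named after its value was seen. Trem2 and Fcrls are also among the pathway genes counted before. The 3 markers of highest level did not pass, with Laptm5 at -0.12, Rgs10 at 0.02 and Lgmn at -0.08. The mean marker level ran from 8.89 to 9.11 in KO cortex, against 8.98 to 9.07 in WT cortex. It ran from 8.80 to 8.89 in KO hippocampus, against 8.89 to 8.99 in WT, and from 8.48 to 8.58 in KO hypothalamus, against 8.67 to 8.76 in WT.

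Markers of border macrophages, the cells of vessels and meninges, were set beside the first Fcgr2b probe. In hypothalamus, where that probe was lower in KO, 1 of 8 tested fell, against 1.74% of all genes called, and 7 did not pass. All 8 differences were negative, with a median of -0.54, against 0.02 for all genes. Mrc1, the mannose receptor, had signals of 181.8, 153.8 and 143.1 in KO hypothalamus, against 232.1, 212.3 and 261.6 in WT hypothalamus (-1.04 ± 0.14, limma adjusted p = 0.000406). The mean marker level was 5.50 to 5.74 in KO hypothalamus, against 5.97 to 6.42 in WT. The summed linear levels were 365 to 434 in KO, against 539 to 755 in WT. In cortex, where the Fcgr2b probe was higher in KO, 6 of 8 markers were positive, none passed in limma and 1 had an unadjusted p under 0.05. The mean was 6.40 to 6.71 in KO cortex, against 6.23 to 6.54 in WT cortex. Between KO regions, 7 of 8 of these markers passed as lower in hypothalamus than in cortex, against 22.6% of all probes, with a median of -0.92. Between WT regions 2 of 8 did, against 23.9% of all probes, with a median of -0.16. Lyve1 was not detected on enough arrays. The part of these cells in the Fcgr2b values was not tested.

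Other blood and immune cells were little seen. Of the mast cell markers only Fcer1a and Hdc were tested, and the mast cell proteases were not detected on enough arrays. Summed linear levels of Fcer1a and Hdc ran from 4746 to 5803 in WT hypothalamus, against 217 to 289 in WT cortex. They ran from 5085 to 6506 in KO hypothalamus, against 238 to 311 in KO cortex. Whether these genes read mast cells in this tissue was not tested. Of the neutrophil markers only S100a8 and Elane were tested, and none of the monocyte and B cell markers were. No marker of mast cells, neutrophils, platelets, or NK and T cells passed between genotypes in limma in any region or in the mean. At an unadjusted p under 0.05 the counts were 1 of 2 neutrophil markers in hippocampus and 1 of 2 in hypothalamus, and 0 elsewhere.

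Some markers from outside the immune cells differed as well. In the mean of the regions 6.24% of all named genes tested passed. Of 3 tested red cell markers, 3 fell in the mean of the regions, namely Alas2, the first enzyme of heme synthesis in red cells (-0.71), Hbb-bt (-0.78) and Hba-a1 (-0.51), with limma adjusted p of 0.00599, 0.00874 and 0.0478. Of 6 oligodendrocyte markers 3 fell, Mog (-0.53), Cldn11 (-0.42) and Mag (-0.28), components of myelin, with limma adjusted p of 0.00199, 0.00283 and 0.00894. Among markers of the dissected regions Rorb fell in cortex (-0.73, limma adjusted p = 0.00673), Fibcd1 rose in cortex (0.61, 0.0142) and Spink8 fell in the mean (-0.80, 0.00337). Without the 3 cortex arrays that stood apart the adjusted p was 0.185 for Rorb and 0.0569 for Fibcd1, whose call was also lost without KO cortex array 3 or WT cortex array 1 or 3 (0.0698 to 0.089). The call of Hba-a1 was lost without any one of 14 arrays (0.0514 to 0.0975). No neuron, astrocyte or hypothalamus marker passed in limma, with 1 of 5, 1 of 7 and 0 of 7 at an unadjusted p under 0.05 in the mean. Their part in the values of the Fc receptor genes was not tested.

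**Figure D4:**
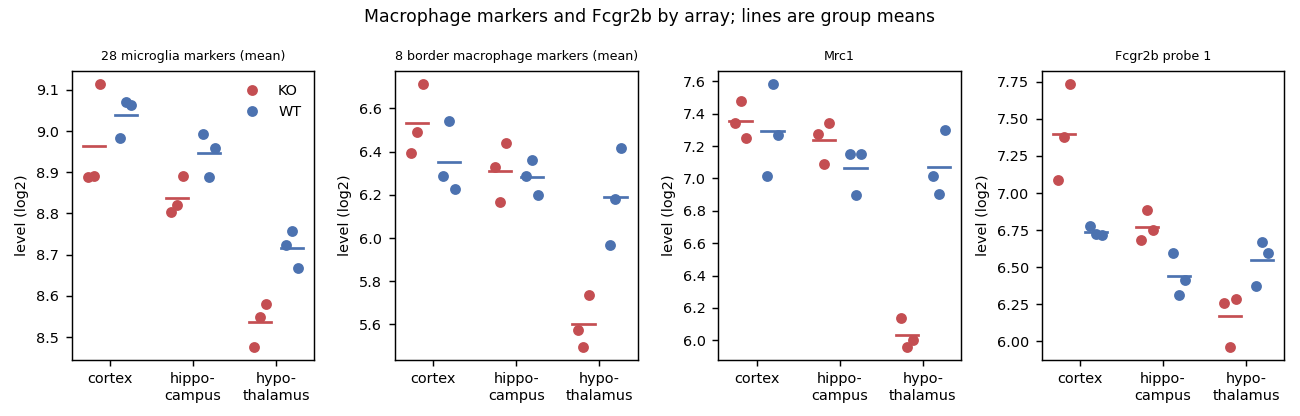
Log2 level by array of the mean of 28 microglia markers, the mean of 8 border macrophage markers, Mrc1 and the first Fcgr2b probe, with KO left of WT in each region and lines for the means of 3 arrays. Each panel has its own axis, and the 3 KO hypothalamus arrays are the lowest of 18 in all 4 panels, at 5.50 to 5.74 for border macrophages against 5.97 to 6.42 in WT hypothalamus.

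The members were also set among their neighbours in the RefSeq gene order (GRCm38.p6). Fcer1g, Fcgr3 and Fcgr2b lie on chromosome 1, Fcgr1 on chromosome 3, Tyrobp on chromosome 7 and Syk on chromosome 13. Of the 3 tested genes on either side of Fcer1g, 3 rose and 2 fell in the mean of the regions. They include Apoa2, an apolipoprotein (-1.27 ± 0.06, limma adjusted p = 4.5e-10), and Adamts4, a protease that cleaves aggrecan (0.68 ± 0.08, adjusted p = 3.94e-05). Fcgr3 and Fcgr2b share their 6 tested neighbours, of which 2 rose and 1 fell. These 3 genes, Sdhc, Adamts4 and Apoa2, are also among those counted around Fcer1g, so the counts are not separate. Around Fcgr1, 0 rose and 1 fell of 6, and around Tyrobp and Syk 0 of 6 passed in either direction. Over all named genes 6.24% passed. Whether the chromosome 1 differences of members and neighbours are linked was not tested.

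Some genes had array profiles much like those of the members, given as descriptions over the same 18 arrays, which fall into 6 groups and share their normalization. Fcer1g levels were most like those of Gramd4 (Pearson r = 0.98), B3galt6 (0.96), Gm5801 (0.96), Bsdc1 (0.95) and Zbtb8os (0.95). None of these lies on chromosome 1. B3galt6, Bsdc1 and Zbtb8os lie on chromosome 4, which also carries Tas1r3, while Gramd4 lies on chromosome 15 and Gm5801 on chromosome 14. Whether the place of these genes bears on the likeness was not tested. Fcgr3 levels were most like those of Cap1 (0.95), B4galt3 (0.94) and Nubp2 (0.94). Of these, Cap1 lies on chromosome 4 and B4galt3 is also a neighbour of Fcer1g. Tyrobp levels were most like those of Kcng4 (0.95), Dyrk1b (0.92) and Abi3 (0.92). For the first Fcgr2b probe the leading genes were Cdsn (0.87), Mup5 (0.86) and Stk38l (0.86), for the second St3gal2 (0.90), Ldha (0.89) and Atg16l1 (0.89), and for Fcgr1 Tmtc1 (0.76), Nefm (0.75) and Msl3 (0.75).

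Deviations from the 6 group means leave out region and genotype. There Fcer1g was most like Adamts1 (r = 0.87), Sez6l (0.83), Cgnl1 (0.82), Mid1ip1 (0.81) and Pdcd6ip (0.81). Fcer1g was not detected on the 9 KO arrays, so its deviations there are those of a signal at the background. Fcgr3 was most like Rps26 (0.93), Bola1 (0.88) and Commd4 (0.85), and Tyrobp like Zfp296 (0.92), Litaf (0.88) and Dnmt3b (0.84). The first Fcgr2b probe was most like St3gal1 (0.83), Cd14 (0.83) and Gdf9 (0.82), the second like Toporsl (0.82), Mapkapk3 (0.81) and Klk6 (0.81), and Fcgr1 like Phf11d (0.81), 4930415L06Rik (0.79) and Fsd2 (0.77). The second Fcgr2b probe was detected on 3 KO and 0 WT arrays and Fcgr1 on 2 KO and 5 WT arrays, so the same limit holds for them.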

How the data were processed

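Total RNA was labelled and hybridised to Illumina mouse bead arrays, 1 array per animal. Per the file headers, the authors deposited a table of non-normalized signal and of detection p-values for 25697 probes, and a second table of log-scale z scores. The deposited z score equals the log signal less the array's mean, divided by its SD, to within 5e-10. Per the submitters' processing notes the signals came from GenomeStudio 2011.1. The intensity of a probe has no count behind it, so the number of arrays limits the precision, and whether background was subtracted is not stated in them.

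Signals were background-corrected by normexp using the detection p-values, quantile-normalized with an offset of 16 and put on the log2 scale (neqc, limma 3.58.1, R 4.3.3). Probes with a detection p under 0.05 on at least 3 arrays were kept, 15476 of 25697, with 1 symbol for 14554 of them. These named 10517 genes. Platform symbols were updated to RefSeq (GRCm38.p6), which matched 14547 of the probes, and genes were read by their brightest probe. One limma fit of 6 group means (12 residual degrees of freedom) gave all contrasts, with Benjamini-Hochberg adjustment over all probes kept. The fit was tested on simulated data.

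A bound such as "at least 11.8-fold" divides the mean of the brighter arrays by a floor for each dim array, which is the lowest level of any detected probe on it or the dim probe's own level, whichever is higher. Named genes were the members, up to 4 called genes of each pathway list and 3 of each marker list (or 2 of smallest p), the 3 brightest microglia markers, the 5 or 3 genes of most similar profile and the 3 tested neighbours on either side. Members and lists were chosen with earlier results of these data known.

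The labels tie no replicate number to a shared litter or batch. Same-numbered KO and WT arrays of a region had correlations of -0.28 to 0.22 in their deviations, over 0.1 in 3 of 9 pairs. Across regions they ran from -0.15 to 0.37 and were over 0.1 in every pair for KO hippocampus and hypothalamus alone (0.22 to 0.37). The main fit used no pairing. In an alternative fit the replicate number was taken as a block, though each array is another animal. The replicate block changed no call of a member between regions. Alternatives were quantile normalization without background correction, the deposited z scores, other filters, a replicate block, a trended robust fit, only the arrays compared, every tested probe of a gene, and arrays left out. Plots used Python 3.11.15 and matplotlib 3.10.9.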

Additional observations from a re-analysis of the deposited data

Results flagged for a closer look

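The first Fcgr2b probe differed in opposite directions between regions, with no overlap between the 3 KO and 3 WT arrays after normalization. It was 0.66 higher in KO on the log2 scale in cortex and 0.34 higher in hippocampus, and the difference in hypothalamus was -0.38. The difference between regions was not tested, and the deposited signals overlapped in hippocampus and hypothalamus. Normalized groups of 3 failed to overlap for 16.9% of all probes tested in cortex, 15.5% in hippocampus and 19.1% in hypothalamus.

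Mrc1, a marker of border macrophages, had a knockout effect that differed between regions by limma's F test (adjusted p = 0.0425, n = 3 arrays in each of 6 groups). Its KO minus WT difference was 0.07 in cortex, 0.17 in hippocampus and -1.04 in hypothalamus.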

How the results depend on the processing

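No result past a threshold changed direction under the alternatives run. The Tyrobp KO minus WT difference, near 0, turned sign in cortex (-0.03) without KO cortex array 1 or WT cortex array 1 (0.06 and 0.04). In the mean (-0.02) it turned without KO cortex 1, KO hypothalamus 1, WT cortex 1 or WT hippocampus 3, at 0.02 or less. Each called region difference of a member, those of the second Fcgr2b probe included, was rerun under the alternatives. Of 124 such reruns outside the omission of single arrays, 117 kept the call, and of 288 with 1 array left out, 279 did. Differences that were not called were not followed singly and enter only the counts. The calls lost were those of Fcgr1, Fcer1g and the first Fcgr2b probe named with them. The count of KO region differences ranged from 9 to 10 and that of WT from 5 to 7 when each array was left out. The Fcer1g mean difference was -4.58, with -4.64 to -4.54 when each array was left out, -3.22 under quantile normalization without background correction and -3.23 from the deposited z scores. For Fcgr3 it was 1.17, with 1.13 to 1.21, 0.93 and 0.93. The pathway gene counts of 3 in cortex, 1 in hippocampus, 0 in hypothalamus and 4 in the mean ranged from 1 to 3, 0 to 1, 0 to 2 and 3 to 6 when each array was left out. The hippocampus count was 0 under quantile normalization, the z scores, the trended robust fit and the fit of only the arrays compared. The hypothalamus count was 1 under quantile normalization, the z scores and the filter at a detection p of 0.01, 2 under the trended robust fit, the replicate block and only the arrays compared, and 3 without the 3 cortex arrays that stood apart. The count in the mean was 7 under quantile normalization and the trended robust fit. The cortex count was 1 without those 3 cortex arrays and 0 with only the arrays compared. The cause of these shifts was not tested. With the replicate block the region counts stayed at 9 in KO and 7 in WT, Nfatc2 had an adjusted p of 0.0505, and 13 of 18 arrays correlated best with their own number. Over all probes the cortex calls, 417, ranged from 159 to 660 when each array was left out, and were 266 without the 3 cortex arrays that stood apart and 63 with only the arrays compared. The hippocampus calls, 194, were 94 with only the arrays compared, and the hypothalamus calls, 247, ranged from 147 to 296 when each array was left out. Probes near the background, Syk, Fcgr1 and the dim Fcgr2b probes, cannot show small differences. With 3 animals per group, region differences were estimated with intervals of about 0.6 in width on the log2 scale for Fcgr3 (-1.46 to -0.82 in KO hypothalamus against cortex).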
